A study of Mus musculus with 8 samples.

Results

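The nerve and Schwann cell genes of brown adipose tissue (BAT) were *Mbp*, *Pmp22*, *Sox10*, *Cdh19*, *Scn7a*, *S100b* and *Ngfr*, 7 of the 44674 genes in the count table. They were chosen by name as genes in common use as markers of peripheral nerve and its glia, and each name matched 1 gene identifier. All 7 had counts in each of 8 mice, and all 7 were among the 14489 genes that passed the filter on low counts. BAT was taken from 4 control mice and 4 Ox1RΔSERT mice, all male, of the C57BL/6N strain and on a high-fat diet (HFD) from 4 to 18 weeks of age. Both groups were homozygous for a floxed allele of *Hcrtr1*, the gene of orexin receptor 1 (Ox1R fl/fl). Ox1RΔSERT mice also carried a Cre transgene named for the serotonin transporter (Sert-Cre tg/wt), and their control littermates did not (Sert-Cre wt/wt). A reporter crossed to Sert-Cre was also switched on ectopically, in parts of the cortex and thalamus. Tissue was collected between 14 and 16 h, when a hyperinsulinemic-euglycemic clamp ended. During a clamp a constant insulin infusion is balanced by glucose, so that glycemia stays level. The comparison asks how gene expression in BAT differs when Ox1R is deleted in cells that express the serotonin transporter.

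BAT is reached by postganglionic sympathetic axons, and the noradrenaline they release drives heat production in brown adipocytes. The cell bodies of these neurons lie in ganglia outside the tissue, whereas the Schwann cells that ensheath the axons lie within it. Most sympathetic axons run in non-myelinating Schwann cells, and other axons of a mixed nerve are wrapped in compact myelin, a stack of membranes held together by proteins such as Pmp22 and Mbp.

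Each mouse was sequenced as 1 library of poly-A selected RNA. Control mice 10684, 11253, 11560 and 11563 gave libraries of 39522372, 35852667, 48106049 and 50020769 counts. For Ox1RΔSERT mice 11243, 11601, 11613 and 11708 the libraries held 50063257, 42606778, 41562461 and 42512573. Values of single mice are given in this order throughout. Normalized values are counts per 1000000 (CPM) after TMM scaling, which compares mice for the same gene. Levels of different genes are compared in transcripts per 1000000 (TPM), which take transcript length into account, except where CPM or counts are named. A floor of 3 counts was worth 0.0592 to 0.0951 CPM, and such floors and the counting intervals given here cover counting error only. *Hcrtr1* had 0 to 5 counts per mouse in both groups, too few to check a deletion made in other cells. *Hcrtr2*, the gene of the other orexin receptor, had 0 counts in 7 mice and 1 count in mouse 11708. *Slc6a4*, the gene of the serotonin transporter, had 0.123 to 0.471 CPM, with 6 to 21 counts per mouse.

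Markers of the tissue and of its other cells set some libraries apart before any nerve gene is considered. All 12 genes of the brown adipocyte list were expressed, led in CPM by *Fabp4*. *Ucp1*, the uncoupling protein of brown fat, had a mean of 2137 TPM. The summed CPM of this list was 15256 ± 673 (SD, n = 4) in control mice and 11595 ± 2185 (SD, n = 4) in Ox1RΔSERT mice, and mice 11601 and 11708 were the lowest with 10120 and 9345. This order belongs to CPM: in summed TPM mouse 11708 was again the lowest with 14284, but mouse 11601 had 16464, above control mice 11253 and 11563. Mice 11601 and 11708 were the highest in connective tissue and immune markers. The fibroblast and preadipocyte list, led in CPM and TPM by *Col3a1*, summed to 6720 CPM in mouse 11601 and 3211 in mouse 11708, against 475.6 to 1256 in the other 6 mice. The leukocyte and macrophage list, led in CPM and TPM by *Lyz2*, summed to 1088 and 826.7 CPM in these mice, against 148.0 to 324.7 in the others. Skeletal muscle transcripts, led in CPM by *Myh4* and in TPM by *Acta1*, summed to 1966 CPM in control mouse 11253 and 2728 in Ox1RΔSERT mouse 11708, against 2.71 to 222.5 in the rest. Control mouse 10684 stood apart in *Mobp* and *Snap25*. *Mobp*, a protein of central myelin, had 165 counts there and at most 2 elsewhere. *Snap25*, a protein of synapses, had 47 counts there and at most 2 elsewhere. Other markers of central glia did not share this: *Mog*, *Opalin* and *Olig2* had at most 3 counts in every mouse. The central glia list summed to 214 counts in mouse 10684 and to 185 in Ox1RΔSERT mouse 11708. The source of these transcripts was not tested.

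The label of the genes was checked against these data. The TPM of *S100b* was 444.6 to 3717 times that of *Sox10*, the transcription factor that defines the Schwann cell lineage. The highest ratio was that of mouse 10684, which had 4 counts of *Sox10*, and the cell source of *S100b* was not tested. Below, the label nerve and Schwann cell genes names this list of 7 genes and not the cell source of their transcripts. It is known that brown adipocytes make S100b, that many cell types outside nerve make Pmp22, and that the *Mbp* locus also gives rise to golli transcripts outside myelin. The values are per gene and do not separate such transcripts. Enzymes of noradrenaline synthesis were close to 0. *Dbh*, the enzyme that makes noradrenaline, had 0 counts in all 8 mice, which allows at most 3 counts per mouse. *Th*, the rate-limiting enzyme of catecholamine synthesis, had 0 counts in 6 mice, 1 in mouse 11601 and 9 in mouse 11708. In whole tissue, fewer Schwann cells and less RNA per Schwann cell cannot be told apart.

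The levels of the 7 genes covered a wide range, and the mean TPM of the highest was 1352 times that of the lowest. *S100b*, a calcium-binding protein of glia, was the highest with 116.6 ± 12.2 TPM (SD over 8 mice). *Pmp22*, a membrane protein of compact myelin, followed with 41.4 ± 12.1 and *Mbp*, which binds the inner faces of the myelin membrane together, with 8.04 ± 2.19. *Scn7a*, a sodium channel family member expressed in non-myelinating Schwann cells, had 1.26 ± 0.438 TPM. *Cdh19*, a cadherin of Schwann cells and their precursors, had 0.390 ± 0.0597. These neighbors did not overlap in any mouse, nor did *Cdh19* and *Sox10*, which had 0.138 ± 0.0789 TPM. *Sox10* and *Ngfr*, the low-affinity neurotrophin receptor p75, did not differ beyond their spread: *Ngfr* had 0.0862 ± 0.0379 TPM, and *Sox10* was the higher of the pair in 6 of 8 mice. *S100b* gave 64.2% of the counts of the 7 genes and *Pmp22* gave 21.9%, so a sum over the genes is mostly these 2.

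**Figure D1:**
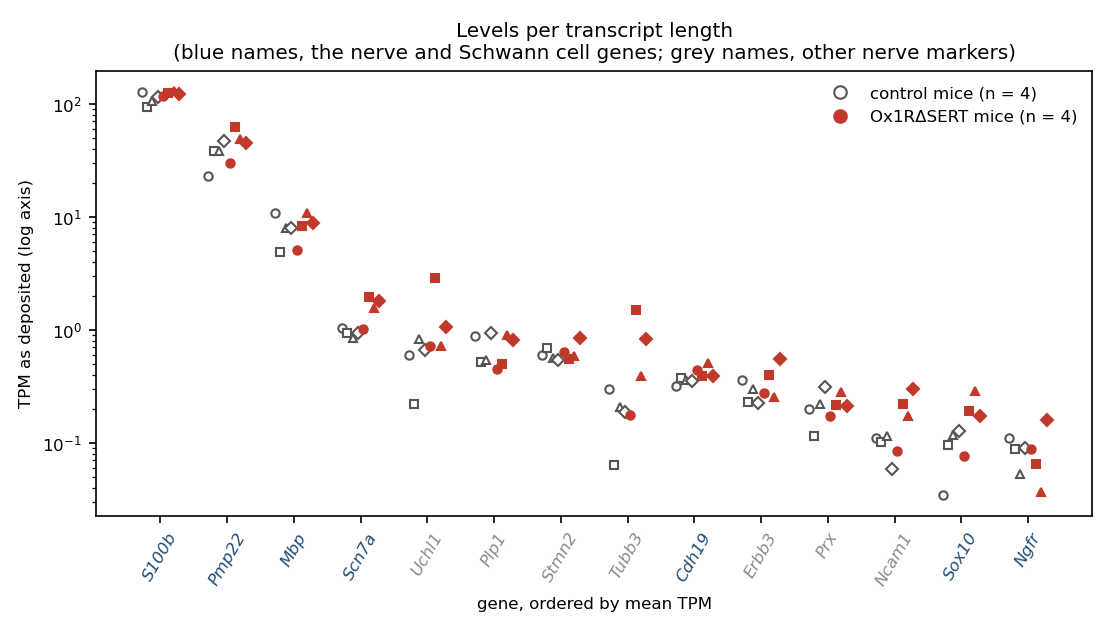
TPM as deposited (log axis) of the 7 nerve and Schwann cell genes (blue names) and 7 other nerve markers (grey names), with 1 point per mouse, open for control mice and filled for Ox1RΔSERT mice. The mean falls from 116.6 TPM for S100b to 0.0862 for Ngfr.

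The promoters of *S100b* and *Pmp22*, which gave most of the counts, are shown because the gene values add up all transcripts of a locus whatever their start. RefSeq promoters of GRCm38.p6 matched 4 of the 7 genes, and *Pmp22*, known for alternative promoters that differ in their use by myelinating Schwann cells, had 4 start sites. The 250 bases before the start of *S100b* (chr10:76253586-76253835, plus strand) and before the first start sites of *Pmp22* (chr11:63128732-63128981 and chr11:63131207-63131456, plus strand) overlapped no exon of GENCODE M21. Capitals mark the CCAAT box, searched as CCAAT and, for the other strand, ATTGG.
S100b: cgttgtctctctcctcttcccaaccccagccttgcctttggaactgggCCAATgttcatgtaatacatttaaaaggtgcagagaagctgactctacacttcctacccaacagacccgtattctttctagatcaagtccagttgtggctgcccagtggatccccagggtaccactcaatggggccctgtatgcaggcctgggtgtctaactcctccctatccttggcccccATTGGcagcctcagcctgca
Pmp22, first start: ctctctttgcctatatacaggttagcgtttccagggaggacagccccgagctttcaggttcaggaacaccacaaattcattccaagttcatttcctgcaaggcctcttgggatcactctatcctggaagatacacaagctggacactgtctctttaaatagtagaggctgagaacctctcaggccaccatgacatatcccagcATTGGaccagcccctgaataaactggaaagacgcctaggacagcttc
Pmp22, second start: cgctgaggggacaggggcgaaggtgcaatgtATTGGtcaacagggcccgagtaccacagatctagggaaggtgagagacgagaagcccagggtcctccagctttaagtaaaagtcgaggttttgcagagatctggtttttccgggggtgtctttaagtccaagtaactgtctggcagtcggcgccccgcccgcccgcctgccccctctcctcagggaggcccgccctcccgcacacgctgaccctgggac
The box occurred at positions -202 and -20 from the start of *S100b* and at -47 and -219 from those of *Pmp22*. It was in 3 of the 7 windows of these genes, and in none of the windows of *Scn7a*, *Ngfr* and the other starts of *Pmp22*. It was present in 33.8% of all 32851 promoter windows of this length. The letters ACAAAG, a core that SOX proteins bind, or their reverse complement CTTTGT were in 0 of the 7 windows of these genes and in 16.5% of all windows. These matches are descriptions of the sequence.

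None of the 7 genes was called between the groups. edgeR's quasi-likelihood test with Benjamini-Hochberg adjustment called 0 of the 7, as it called 0 of all 14489 tested genes, 0%, and the lowest adjusted p of any gene was 0.316. DESeq2 also called 0 of the 7, whereas it called 265 of 15119 genes, 1.75%. At an unadjusted p under 0.05 in edgeR, 1 of the 7 was higher in Ox1RΔSERT mice, *Scn7a*, and 0 were lower. The same held for 2201 of all tested genes, 15.2%, with 10.2% higher and 4.96% lower. In CPM the groups did not overlap in 1 of the 7, again *Scn7a*, which was higher, against 5.5% of all tested genes, 2.69% higher and 2.81% lower. In TPM the groups overlapped for *Scn7a*, with 1.02 in mouse 11243 and 1.04 in control mouse 10684, but not for *Cdh19*. The log2 fold change was above 0 for 2 of the 7 and below 0 for 5, with a median of -0.05, and the median of all tested genes was 0.00. The split was the same with RLE and upper-quartile scaling and in DESeq2, but it turned to 4 above and 3 below 0 without mouse 11708, with a median of 0.03, and without both mice 11601 and 11708, with a median of 0.01. The split also depended on the scale. It was 6 above and 1 below 0 with library size alone. On log2(TPM + 1) it was 7 and 0, and on log2(TPM + 0.1) it was 6 and 1. When mice were scaled by library size alone the median of all tested genes moved to 0.22, and in deposited TPM it moved to 0.23 with a pseudocount of 1 and to 0.32 with a pseudocount of 0.1. The median of the 7 genes less that of all genes was then -0.08, -0.12 and -0.08. The mitochondrially encoded share of the counts was 40.0, 46.8, 42.7 and 42.1% in control mice and 44.6, 33.6, 34.0 and 36.2% in Ox1RΔSERT mice, and its part in this shift was not tested.

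**Figure D2:**
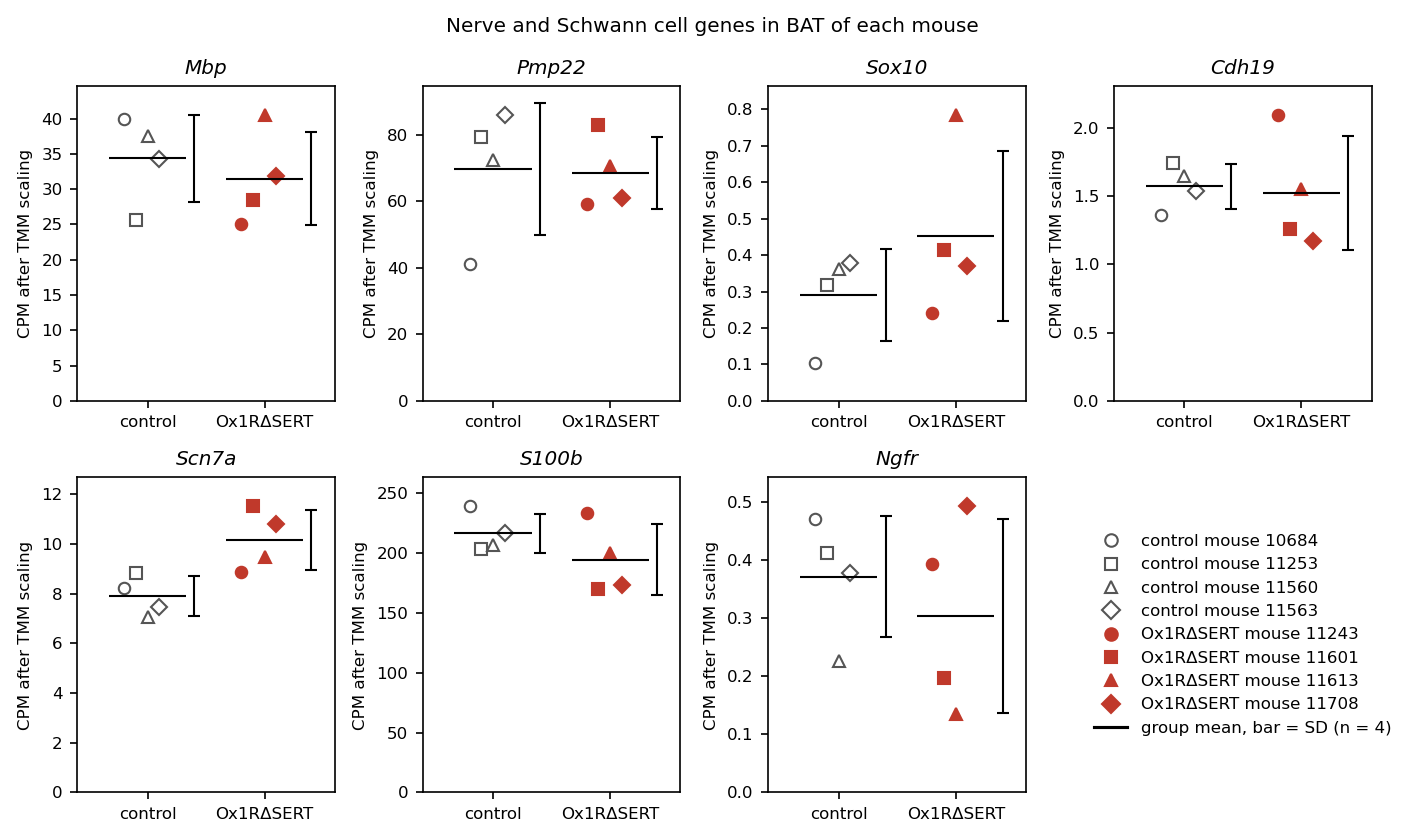
CPM after TMM scaling of each gene in each mouse, with a symbol for each mouse, the group mean as a line and the SD as a bar (n = 4 per group). The groups overlap in 6 of the 7 panels; for Scn7a the lowest Ox1RΔSERT mouse has 8.87 CPM and the highest control mouse 8.85.

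*Scn7a* was the gene with the clearest difference. It had 8.21, 8.85, 7.05 and 7.46 CPM in control mice and 8.87, 11.5, 9.47 and 10.8 in Ox1RΔSERT mice. All 4 Ox1RΔSERT mice lay above all 4 control mice, but the gap was narrow, because mouse 11243 exceeded control mouse 11253 by less than the SD of either group. The mean was 7.89 ± 0.799 CPM (SD, n = 4) in control mice and 10.2 ± 1.21 (SD, n = 4) in Ox1RΔSERT mice. This was a log2 fold change of 0.37 (standard error, SE, 0.13; 95% interval 0.07 to 0.66), which was 0.40 on log2(TPM + 1) and 0.66 on log2(TPM + 0.1). It did not pass the threshold in edgeR, where p was 0.0199 unadjusted and 0.316 adjusted. The exact two-sided permutation test gave p = 0.0286, the smallest p that 4 against 4 mice allow, on CPM and p = 0.0571 on TPM. In DESeq2 the adjusted p was 0.158, and it ranged from 0.14 to 0.996 over all alternatives. The highest values were those of mice 11601 and 11708, the mice with the most fibroblast and leukocyte transcripts, and the part of those cells in the difference was not tested. Without both mice the log2 fold change was 0.22 with an unadjusted p of 0.147. Leaving out control mouse 11560 alone raised the unadjusted p to 0.0583, and leaving out mouse 11601 alone raised it to 0.0559. The gene (ENSMUSG00000034810) lies on the minus strand of chromosome 2 of GRCm38, from 66673425 to 66784914.

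The groups overlapped in CPM for the other surface proteins. *Cdh19* (ENSMUSG00000047216, chromosome 1, 110888326 to 110977584, minus strand) had 1.36, 1.74, 1.65 and 1.53 CPM in control mice and 2.10, 1.26, 1.55 and 1.17 in Ox1RΔSERT mice. Mouse 11243 was the highest of all mice, mice 11601 and 11708 were the lowest, and the control mice lay between. The log2 fold change was -0.05 (SE 0.23, 95% interval -0.57 to 0.47). On TPM the order was different: all 4 Ox1RΔSERT mice, at 0.388 to 0.507 TPM, lay above all 4 control mice, at 0.315 to 0.374, and the exact permutation test gave p = 0.0286. The direction for *Cdh19* therefore depended on the scale. *Ngfr* (ENSMUSG00000000120, chromosome 11, 95568818 to 95587735, minus strand) was near the limit of detection with 6 to 24 counts per mouse. It had 0.471, 0.412, 0.226 and 0.378 CPM in control mice and 0.393, 0.197, 0.135 and 0.494 in Ox1RΔSERT mice. The lowest and the highest value both came from the Ox1RΔSERT group, and their 95% Poisson intervals were 0.0494 to 0.293 and 0.316 to 0.734 CPM. The log2 fold change was -0.28 (SE 0.44, 95% interval -1.28 to 0.73). With each mouse left out in turn it was between -0.61 and -0.04.

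*Sox10* (ENSMUSG00000033006, chromosome 15, 79154908 to 79165240, minus strand) directs Schwann cell specification and switches on myelin genes. It had 4, 10, 16 and 18 counts in control mice and 11, 21, 35 and 18 in Ox1RΔSERT mice, which gave 0.105, 0.317, 0.361 and 0.378 CPM and 0.240, 0.414, 0.786 and 0.370 CPM. Control mouse 10684 was the lowest and Ox1RΔSERT mouse 11613 the highest, and the other 6 mice lay together. The 95% Poisson interval was 0.0285 to 0.268 CPM in mouse 10684 and 0.547 to 1.09 in mouse 11613. The log2 fold change of 0.62 (SE 0.47, 95% interval -0.45 to 1.70) was the largest in size of the 7 genes and also the least precise. With each mouse left out in turn it was between 0.22 and 0.81, and on log2(TPM + 1) it was 0.11, below that of *Pmp22* with 0.35.

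The myelin proteins did not separate the groups. *Mbp* (ENSMUSG00000041607, chromosome 18, 82475146 to 82585637, plus strand) had 39.9, 25.7, 37.6 and 34.3 CPM in control mice and 25.1, 28.4, 40.6 and 31.9 in Ox1RΔSERT mice. Each group held high and low mice, and the log2 fold change was -0.13 (SE 0.18, 95% interval -0.53 to 0.28). With each mouse left out in turn it was between -0.27 and -0.05. *Pmp22* (ENSMUSG00000018217, chromosome 11, 63128982 to 63159547, plus strand) had 41.2, 79.3, 72.4 and 86.1 CPM in control mice and 59.3, 82.9, 70.8 and 61.2 in Ox1RΔSERT mice. All Ox1RΔSERT mice fell within the range of the control mice, in which mouse 10684 was the lowest. Its log2 fold change was -0.03 (SE 0.22, 95% interval -0.52 to 0.47).

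*S100b* (ENSMUSG00000033208, chromosome 10, 76253853 to 76261159, plus strand) had 239.3, 203.2, 206.6 and 217.0 CPM in control mice and 233.9, 169.6, 200.2 and 173.6 in Ox1RΔSERT mice. Of the Ox1RΔSERT mice, 3 lay below every control mouse and mouse 11243 was second only to control mouse 10684. The log2 fold change was -0.16 (SE 0.12, 95% interval -0.43 to 0.12), and -0.28 to -0.096 with each mouse left out in turn. Its lowest CPM values were those of mice 11601 and 11708, which were also the lowest in summed CPM of brown adipocyte genes, and without these mice the log2 fold change was 0.01. The part of adipocyte content in the difference was not tested. Without mouse 11243 the groups did not overlap, as in 15.8% of all tested genes, and the unadjusted p in edgeR was 0.0427, with an adjusted p of 0.209, in a range of 0.209 to 0.997 over all alternatives. On TPM the direction was reversed, with an exact permutation p of 0.171.

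**Figure D3:**
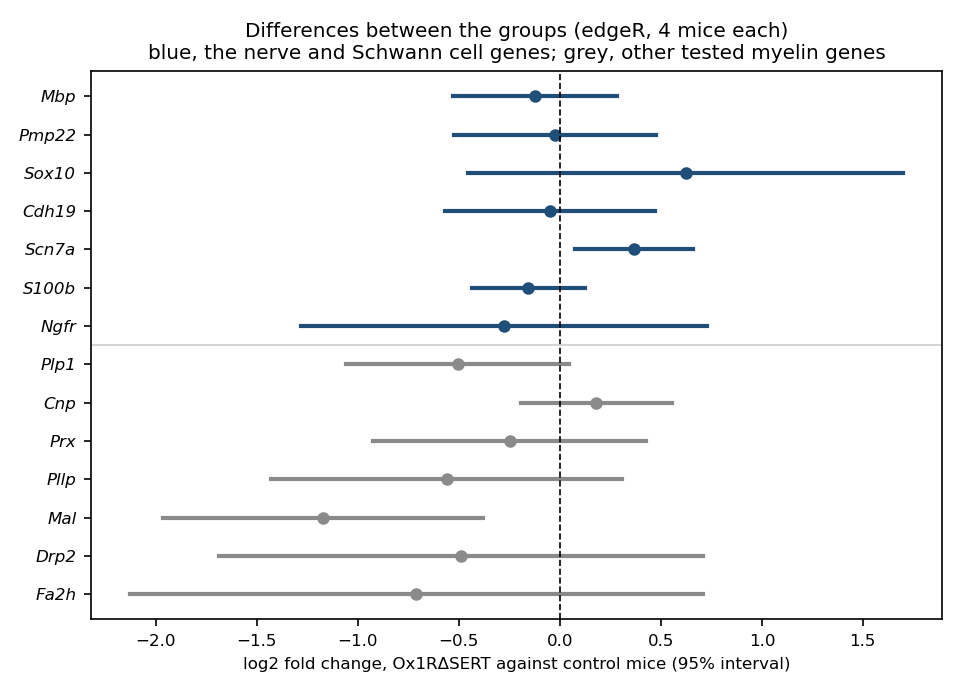
log2 fold change of Ox1RΔSERT against control mice with its 95% interval from edgeR, for the 7 nerve and Schwann cell genes (blue) and 7 other tested genes of compact myelin (grey). The intervals of Scn7a and Mal exclude 0, and neither gene passed the adjusted threshold.

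Most tested genes of compact myelin had a log2 fold change below 0, and none was called. The SD of log2 values over the 8 mice was 0.27 for *Mbp* and 0.35 for *Pmp22*, where the median of all tested genes was 0.26. The 4 highest mice for *Mbp* included control mouse 10684, the library with *Mobp*, which shares central myelin with *Mbp*. Of the 15 genes in the compact myelin list, 10 were tested, 1 was higher and 9 were lower in Ox1RΔSERT mice, with a median log2 fold change of -0.50 against 0.00 for all tested genes. On deposited TPM the split was 4 higher and 6 lower, and the median was -0.02 with a pseudocount of 1 and -0.09 with a pseudocount of 0.1. Without control mouse 11563 it was -0.22. None was called. An unadjusted p under 0.05 was reached by 15.2% of all tested genes and by 1 of these 10. This was *Mal*, a proteolipid of myelin and epithelial membranes, with 3.16, 2.57, 2.53 and 2.67 CPM in control mice and 1.14, 1.26, 1.93 and 0.514 in Ox1RΔSERT mice. In CPM the groups did not overlap, and the log2 fold change of -1.17 (SE 0.35) did not pass (edgeR adjusted p 0.316). In TPM the groups overlapped for *Mal*, with 0.733 in mouse 11613 and 0.683 in control mouse 11253. *Cnp*, an enzyme of myelin-forming glia, was the 1 tested gene with a higher mean, with a log2 fold change of 0.18 (SE 0.16). *Mag*, *Gjb1*, *Ugt8a*, *Ncmap* and *Cldn19* did not pass the filter. Without mice 11601 and 11708 the median of the list was -0.09.

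Of 20 genes of Schwann cell identity and surface, 15 were tested, with 10 higher and 5 lower in Ox1RΔSERT mice and a median log2 fold change of 0.05. None was called, and 2 had an unadjusted p under 0.05, *Scn7a* and *Matn2*, against 0 without mice 11601 and 11708. Of all tested genes 15.2% had such a p. The split was 13 higher and 2 lower with library size alone. It was 15 and 0 on log2(TPM + 1) and 14 and 1 on log2(TPM + 0.1). Without control mouse 10684 the median was 0.17, and without mouse 11613 it was 0.18. *Matn2*, a matrix protein, had 4.32, 6.82, 5.74 and 7.19 CPM in control mice and 6.92, 19.1, 8.15 and 11.6 in Ox1RΔSERT mice, again with the highest values in mice 11601 and 11708. This was a log2 fold change of 0.93 (SE 0.32; edgeR adjusted p 0.316). *Art3*, a surface protein of the ADP-ribosyltransferase family, had the highest TPM after *S100b*, 28.5 on average, and a log2 fold change of 0.01. *Foxd3*, *Pou3f1*, *Gfap*, *Sox2* and *Fabp7* did not pass the filter. *Gfap*, a filament protein of non-myelinating Schwann cells and astrocytes, had 36 counts in control mouse 10684 and at most 3 in the others. Of 8 genes of Schwann cell repair 2 were tested, *Jun* and *Bdnf*, both with an unadjusted p above 0.05. *Jun* had 19.0 TPM on average, *Gap43* had 68 counts in mouse 11601, 21 in mouse 11708 and at most 4 in the others, and *Shh* had 1 count over all mice. The perineurium genes *Slc2a1*, *Itgb4* and *Cldn1* were all tested, with log2 fold changes of 0.30, 0.03 and -1.16, and none was called. Melanocytes share the *Sox10* lineage, and of 5 melanocyte genes *Tyr* and *Pmel* were tested. Both had a log2 fold change below 0 (-0.15 and -0.23), whereas *Tyrp1* had 0 counts in every mouse. On log2(TPM + 1) and log2(TPM + 0.1) *Tyr* and *Pmel* were both higher, and with library size alone 1 was higher and 1 lower.

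**Figure D4:**
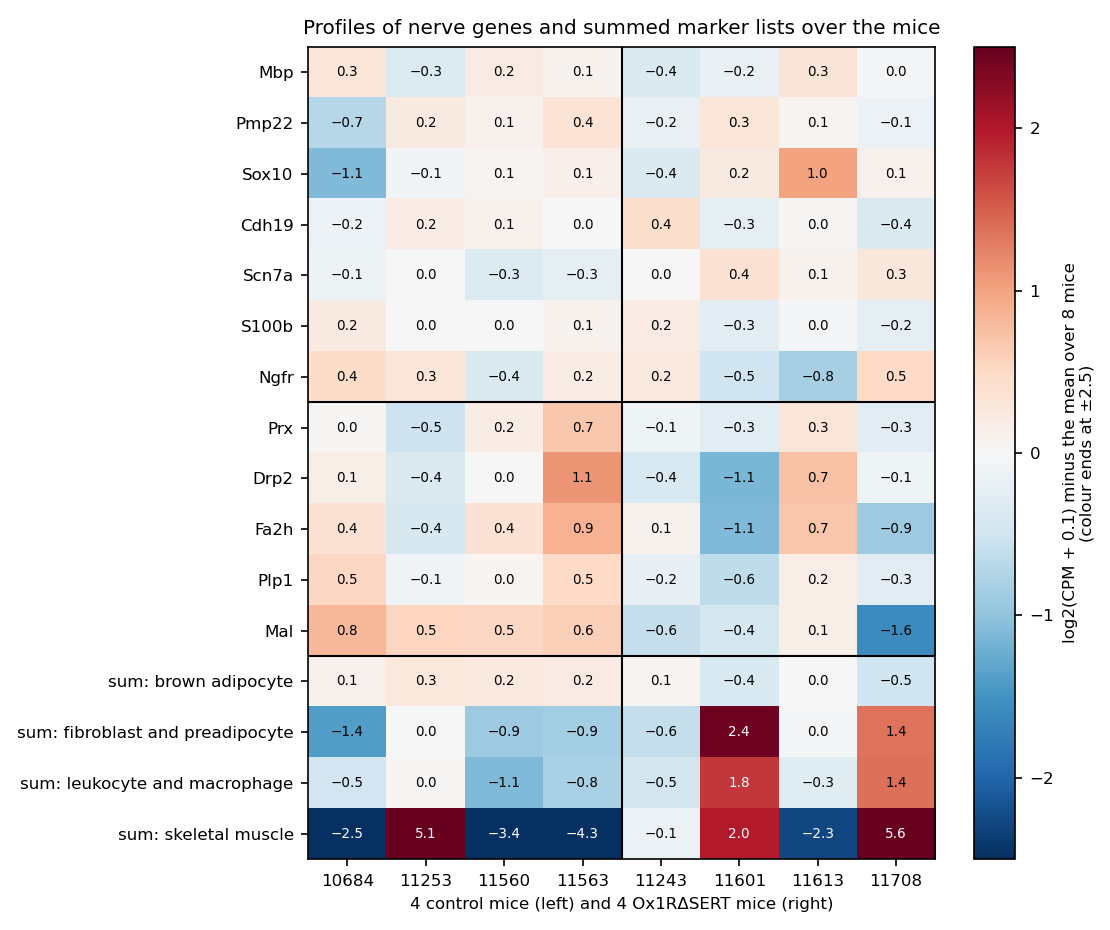
log2(CPM + 0.1) of each gene, and of the summed CPM of 4 marker lists, minus its mean over the 8 mice; columns are mice, control on the left, and the colour scale ends at ±2.5. The fibroblast and leukocyte sums are highest in mice 11601 and 11708, and no single pattern over the mice is shared by the 7 genes.

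Transcripts of genes known for contact and signalling between axon and Schwann cell were compared next. They were measured in whole tissue, and their cell source was not tested. Of the contact proteins at nodes and along the axon, 6 of 8 were tested, 4 were higher and 2 lower, and none had an unadjusted p under 0.05. Without mouse 11243 the split was 2 higher and 4 lower and the median moved from 0.11 to -0.09, and without control mouse 11253 it was 3 and 3 with a median of -0.07. *Cntnap1*, which anchors myelin beside the node of Ranvier, and *Gldn*, which helps to assemble the node, were the highest by TPM. In neuregulin signalling, which sets myelin thickness, the receptor *Erbb2* had a log2 fold change of 0.50 (SE 0.23), and of 5 tested genes 4 were higher, 1 was lower and none had an unadjusted p under 0.05. Without mice 11601 and 11708 the split was 2 higher and 3 lower and the median moved from 0.27 to -0.13, and DESeq2 without control mouse 10684 called 1 of these genes. The ligand *Nrg1* was not tested, with at most 11 counts per mouse. Of 4 tested neurotrophic ligands, 2 were higher and 2 lower. *Nrtn*, neurturin, had the highest TPM of the ligands and a log2 fold change of -0.06, and *Ntf3* had one of -0.53. Of 8 tested receptors, 3 were higher and 5 lower with a median of -0.22, but on log2(TPM + 1) 7 were higher and 1 lower with a median of 0.06, and on log2(TPM + 0.1) 6 were higher and 2 lower with a median of 0.08. *Gfra2*, the coreceptor of neurturin, had 1.88, 1.93, 2.37 and 1.83 CPM in control mice and 2.40, 10.4, 2.45 and 4.46 in Ox1RΔSERT mice. In CPM the groups did not overlap, the log2 fold change was 1.30 (SE 0.46, edgeR adjusted p 0.316), and mice 11601 and 11708 were again the highest. In TPM the groups overlapped for *Gfra2*, with 0.547 in mouse 11243 and 0.558 in control mouse 11560. For *Gfra1* the log2 fold change was -0.70 (edgeR p 0.0491 unadjusted and 0.328 adjusted). *Sort1*, *Ntrk2* and *Ntrk3* had the highest TPM of the receptors, and their log2 fold changes were -0.24, -0.33 and 0.36.

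Axonal transcripts were sparse. Of 22 genes of sympathetic neurons and axons, 18 did not pass the filter and 7 never exceeded 3 counts in a mouse. The 4 tested genes were *Uchl1*, *Stmn2*, *Tubb3* and *Nefm*, of which 3 were higher and 1 was lower. Without mice 11601 and 11708 the split was 2 higher and 2 lower, and the median moved from 0.88 to -0.02. Without mouse 11601 alone the median was 0.19. On log2(TPM + 1) and log2(TPM + 0.1) 4 were higher and 0 lower. *Tubb3*, the neuronal beta-tubulin, had 0.680, 0.159, 0.474 and 0.420 CPM in control mice and 0.415, 2.39, 0.786 and 1.38 in Ox1RΔSERT mice, a log2 fold change of 1.50 (SE 0.58; edgeR p 0.0291 unadjusted and 0.316 adjusted). Mice 11601 and 11708 were the highest here too. *Stmn2*, a protein of growing axons, had a log2 fold change of -0.30. The summed CPM of the list was 2.90 to 10.7, which came from 101 to 544 counts. Of the sensory neuron genes, *Calca* and *Trpv1* were tested, with log2 fold changes of -0.66 and -0.12, and *Scn10a* had 0 counts.

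Genes of the surrounding cells were counted in the same way, by unadjusted p-values under 0.05. In the fibroblast and preadipocyte list 8 of 8 had such a p, and in the leukocyte and macrophage list 9 of 9 tested. All of these were higher in Ox1RΔSERT mice. In the brown adipocyte list it was 4 of 12, all lower. Of all tested genes 15.2% had such a p, with 10.2% higher and 4.96% lower. On TPM 1 of the 12 adipocyte genes had such a p. It was also 1 of 12 without control mouse 11560 or control mouse 11563, and 7 of 12 without mouse 11613. Without mice 11601 and 11708 it was 1 of 12, and the median of the adipocyte list moved from -0.36 to -0.16. *Pdgfra*, *Ptprc* and *Elovl3* had the lowest p of these lists, with log2 fold changes of 1.20, 1.64 and -1.07, and each had an adjusted p of 0.316 in edgeR. DESeq2 called 3 genes of the leukocyte list, 1 of the fibroblast list and 1 of the brown adipocyte list, and 0 of the myelin and Schwann cell lists. Without mice 11601 and 11708 the medians of the fibroblast and leukocyte lists moved from 1.51 to 0.43 and from 1.59 to 0.17, and 1 of 8 and 0 of 9 genes kept such a p. That fit compared 4 control mice with 2 Ox1RΔSERT mice, and of all tested genes 424 had such a p, against 2201 with all mice. Without control mouse 11560 alone 5 of 8 and 3 of 9 genes kept such a p, and of all tested genes 1018 had one. In the endothelial, smooth muscle and pericyte, white adipocyte and skeletal muscle lists, 0 of 28 tested genes had an unadjusted p under 0.05. For skeletal muscle this rested on 1 muscle-rich library in each group: without control mouse 11253 it was 10 of 10, and the median of the list moved from 0.56 to 6.88, and without Ox1RΔSERT mouse 11708 it was 0 of 10 with a median of -2.32.

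The 7 genes did not share a common profile over the mice. Likeness was measured as the root-mean-square difference between log2 profiles centered on their mean over 8 mice, where 0 means the same profile. Between the 7 genes it was smallest for *Cdh19* and *S100b* with 0.18, and 4.49% of tested genes were nearer to *Cdh19* than *S100b* was. It was largest for *Sox10* and *Ngfr* with 0.95, both of which carry the counting error of few reads. The nearest genes to *Scn7a* were *Mcrip1*, *Zfp512b* and *Tex10* with 0.04, 0.05 and 0.05. Those to *S100b* were *Pdss2*, *H2afv* and *Mrps5* with 0.03, 0.04 and 0.04. *Pmp22* was nearest to *Bax*, *Tceal9* and *Armcx3* with 0.08, 0.10 and 0.11, and *Mbp* to *Znfx1*, *Zfp445* and *Gm10226* with 0.10, 0.13 and 0.13. For *Cdh19* the nearest were *Gm42847*, ENSMUSG00000104565 and *Tmem74b* with 0.09, 0.10 and 0.10. For *Sox10* they were *Gm21887*, *Star* and *Scnn1g* with 0.22, 0.23 and 0.24, and for *Ngfr* they were *Gm43056*, *Gja5* and *Gm8935* with 0.18, 0.20 and 0.21. No myelin or Schwann cell gene of the lists was among the 3 nearest to any of the 7. Of the genes in the myelin, Schwann cell, adipocyte, fibroblast and leukocyte lists, *S100b* was nearest to *Fabp4* with 0.15 and *Adipoq* with 0.16, both made by adipocytes, and *Scn7a* was nearest to *Cnp* with 0.13. In these lists *Mbp* was nearest to *Plin1* with 0.25 and *Adipoq* with 0.27. The distances of *S100b* and *Mbp* to these adipocyte genes were close to the SD of their own log2 values over the 8 mice. That SD was 0.18 for *S100b* and 0.27 for *Mbp*. A flat profile would lie about as near, so these distances do not show a shared pattern. *Cdh19* was nearest to *S100b* with 0.18 and then to *Fabp4* with 0.19. *Pmp22* and *Sox10* were nearest to *Kcna1* with 0.23 and 0.36, and *Ngfr* to *Erbb3* with 0.38.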

How the data were processed

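Libraries of BAT from 8 mice were prepared by the authors with a stranded kit after poly-A selection. Per the study's methods, the authors quantified genes with Salmon 0.14.1 in nf-core/rnaseq 1.4 on GRCm38, and the submitters' notes also name STAR and DESeq2 1.26.0. The annotation release and the strand setting were not given in the sources used here. The authors deposited estimated counts per gene, not normalized, and TPM values, which they normalized for transcript length and library size. Symbols and positions came from GENCODE M21, which matched 44118 of 44674 identifiers, 98.8%. No exon of the 7 genes overlapped another gene there. Among other genes named, *Cnp*, *Cntnap1*, *Art3*, *Pmel*, *Erbb2*, *Elovl3*, *Jun*, *Nefm*, *Itgb4*, *Sort1*, *Gfra1* and *Nrg1* share exon bases with a counted gene on the opposite strand, and *Pdgfra* with counted genes on both strands, so their values are uncertain.

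Estimated counts were rounded and compared with edgeR 4.0.16 in R 4.3.3 (filterByExpr, TMM, glmQLFit, glmQLFTest, two-sided, no covariates, Benjamini-Hochberg adjustment over all tested genes, threshold 0.05). Standard errors came from the F statistic. Exact permutation tests covered all 70 assignments of 4 mice against 4. Each mouse was 1 biological replicate, and no library pair of a group agreed within sampling noise (chi-square over degrees of freedom 16.5 to 217.3). The alternatives were RLE, upper-quartile and library size scaling, DESeq2 1.42.0, limma 3.58.1 on log2(TPM + 1) and log2(TPM + 0.1), no filter on low counts, a minimum of 10 counts in each mouse, robust dispersions and leaving out each mouse; fits without mice 11601 and 11708 together, and DESeq2 without mouse 11601, 11708 or 10684, were chosen after seeing the data.

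The named genes were drawn from all 7 genes, for each of 19 lists its 3 tested genes with the highest mean TPM and the gene with the lowest unadjusted p in each direction, defining markers that failed the filter, the genes of the orexin receptors and the serotonin transporter, and for each of the 7 its 3 nearest profiles (log2 of CPM + 0.1). *Snap25* and *Mobp* were singled out after their values were seen. The 7 genes and the lists were chosen with earlier results of these data known. The scripts were tested on simulated data.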

Additional observations from a re-analysis of the deposited data

Results flagged for a closer look

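Outliers were sought in 70 groups of 4 mice, formed by the 7 genes, the summed marker lists and further nerve genes. In 8 of these groups a mouse stood far from the other 3. The nominal chance share is about 1 in 20 groups, but the 8 cannot be read against it. *Mobp* and *Snap25* were singled out after their values were seen, and each is also part of a summed list. None of the 8 involved the 7 nerve and Schwann cell genes themselves. Control mouse 10684 accounted for 4 of them: *Mobp* had 4.32 CPM, *Snap25* had 1.23 CPM, *Gfap* had 0.942 CPM and the summed sympathetic neuron and axon list had 6.12 CPM in this mouse, each far above the other control mice. *Mbp* had 39.9 CPM in the same mouse, within the range of the other mice, and of the other genes of central glia *Slc1a2* had 42 counts there, against 0 to 3 in the other control mice, *Mog* and *Olig2* had 1 and 2, *Opalin* had 0, and *Aqp4* had 4 against 45 in control mouse 11253. The source was not tested.

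The summed skeletal muscle list was far from the rest of its group in control mouse 11253 with 1966 CPM and in Ox1RΔSERT mouse 11708 with 2728 CPM. In mouse 11708 the summed central glia list was also high with 3.80 CPM, mostly from *Slc1a2* with 2.65 CPM and *Aqp4* with 1.15 CPM, while *Mobp* was at 0 there. *Mobp* in Ox1RΔSERT mouse 11243 had 0.0437 CPM, which is 2 counts against 0 in the other mice of the group.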

How the results depend on the processing

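Of the 7 nerve and Schwann cell genes, 0 were called in each of 21 alternatives. All genes called stayed at 0 in the edgeR and limma fits, and DESeq2 called 265. In fits added after seeing the data DESeq2 called 17 genes without mouse 11601, 19 without mouse 11708 and 373 without control mouse 10684. Genes with an unadjusted p under 0.05 numbered 1018 (without control mouse 11560) to 3331 (without mouse 11243) when each mouse was left out in turn and 424 without mice 11601 and 11708, against 2201 in edgeR. In DESeq2 they numbered 1353 without mouse 11601 and 1366 without mouse 11708, against 2578. Of the 2201 in edgeR, 67.3% were higher in Ox1RΔSERT mice, but the share was 97.2% with library size alone, 98.8% on log2(TPM + 1) and 99.0% on log2(TPM + 0.1). Of the 7 genes, 0 to 2 had such a p when a mouse was left out, 0 without both mice 11601 and 11708, and 0 in DESeq2 without mouse 11601, and 1 to 2 had groups without overlap, against 6.4 to 15.8% of all tested genes. At least 10 counts in every mouse removed *Sox10* and *Ngfr*.

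The sign of *Sox10* and *Scn7a* was the same in all alternatives that tested them, and the other 5 changed sign in some of them. With library size alone the values were 0.0920 for *Mbp*, 0.21 for *Pmp22*, 0.14 for *Cdh19* and 0.0397 for *S100b*, where the median of all genes was 0.22. On log2(TPM + 1) they were 0.0575, 0.35, 0.0849 and 0.17, with 0.00246 for *Ngfr*, and on log2(TPM + 0.1) they were 0.0646, 0.35, 0.24 and 0.17. Without mice 11601 and 11708 *Cdh19* had 0.22 and *S100b* 0.00873. DESeq2 gave *Cdh19* 0.0306 without mouse 11601 and 0.0584 without mouse 11708, and *Pmp22* 0.0230 without mouse 11708. With each mouse left out, *Pmp22* was between -0.21 and 0.0781 and *Cdh19* between -0.26 and 0.0578. The cause was not tested. On TPM the exact permutation p was 0.714 for *Mbp*, 0.286 for *Pmp22*, 0.0286 for *Cdh19*, 0.171 for *S100b* and 0.971 for *Ngfr*, all with the opposite sign, and 0.0571 for *Scn7a*. The median of the 7 genes moved from -0.05 to 0.14 with library size alone, 0.11 on log2(TPM + 1) and 0.24 on log2(TPM + 0.1). That of the compact myelin list moved from -0.50 to -0.0211 and -0.0921 on these TPM scales and to -0.0855 without mice 11601 and 11708, and that of the Schwann cell list from 0.05 to 0.27 with library size alone and 0.30 on log2(TPM + 0.1).

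The main limits are 4 mice per group, libraries with unequal sums of cell type markers, and few counts. With 4 to 35 counts of *Sox10* and 6 to 24 of *Ngfr* per mouse, differences of these genes are measured with an SE of 0.47 and 0.44 on the log2 scale.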
